A study of Mus musculus with 25 samples.

Results

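The genes examined were 10 genes of protein folding and stress signalling in the endoplasmic reticulum (ER), chosen by name from the 56956 genes in the count table. They were the chaperones Hspa5, Hsp90b1, Canx and Calr, the stress transducers Atf6, Xbp1 and Atf4, and the later response genes Ddit3, Trib3 and Chac1. The question was whether mice with extra copies of human PMP22 show higher RNA of these genes in the sciatic nerve. PMP22 is a membrane protein of compact myelin, and its duplication causes Charcot-Marie-Tooth type 1A. The data are 25 RNA libraries of whole sciatic nerve from 5 groups of mice, each group sampled once at each of 5 ages between 3 and 12 weeks.

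C3 mice, line B6.Cg-Tg(PMP22)C3Fbas/J, carry 5 extra copies of human PMP22 on C57BL/6J, and their controls, WT-C3, were C57BL/6J. C22 mice, line Tg(PMP22)C22Clh, carry 10 copies on FVB/NRJ, and their controls, WT-C22, were FVB/NRJ. C3 c-Jun KO mice carry the C3 transgene and a knockout of the transcription factor c-Jun driven by P0Cre, which acts in Schwann cells. None of the groups was treated. Each library pooled the nerves of 4 to 5 males and females, with 1 pool per group and age. The 5 ages of a group therefore served as its replicates (n = 5), and spread between pools and change with age both enter every SD and standard error (SE). Since the models differ in strain as well as in copy number, effects of copy number and of strain on their difference cannot be told apart. In RNA of whole nerve, fewer cells of a type and less RNA per cell cannot be told apart.

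Secreted and membrane proteins, PMP22 among them, fold in the ER with the help of chaperones. When unfolded protein accumulates, sensors in the ER membrane start the unfolded protein response. ATF6 is cut in the Golgi to free a transcription factor, IRE1 splices Xbp1 mRNA so that it encodes one, and PERK slows translation while that of ATF4 increases. ATF6 and XBP1 raise chaperones such as HSPA5 through a promoter motif known as the ER stress response element (ERSE). ATF4 raises Ddit3, Trib3 and Chac1, partly through a C/EBP-ATF response element (CARE), and it also serves the integrated stress response to other stresses such as lack of amino acids. Splicing of Xbp1, cleavage of ATF6 and translation of Atf4 cannot be seen in counts of fragments per gene.

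The promoter motifs are shown to mark which genes match a known element of the ATF6 and XBP1 arm or of the ATF4 arm. RefSeq promoter windows of 300 bases, 250 before and 50 after the start of the transcript (build GRCm38.p6), were found for 9 of the 10 genes, all but Atf6. ERSE was searched on both strands as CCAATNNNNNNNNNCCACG and was found in 4 of the 9 windows, those of Hspa5, Hsp90b1, Canx and Calr, against 0.119% of all 32851 windows. CARE was searched on both strands as TGATGNAA and was found in 2, those of Trib3 and Chac1, against 3.97% of all windows. The motif UPRE, searched as TGACGTGG, and the motif ERSE-II were found in 0 of the 9. The windows of Ddit3, Atf4 and Xbp1 held none of these letters. The matches are printed along the strand of the gene with 11 bases on each side, and capitals mark the fixed bases of the motif. A match that reads CGTGG before ATTGG, or TT before CATCA, is one on the opposite strand.
Hspa5, chr2:34772014-34772054: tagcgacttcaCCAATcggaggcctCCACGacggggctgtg
Hsp90b1 first match, chr10:86705627-86705667: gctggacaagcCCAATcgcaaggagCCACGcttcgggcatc
Hsp90b1 second match, chr10:86705522-86705562: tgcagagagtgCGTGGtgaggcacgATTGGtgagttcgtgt
Canx, chr11:50325789-50325829: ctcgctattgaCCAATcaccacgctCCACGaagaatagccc
Calr, chr8:84847064-84847104: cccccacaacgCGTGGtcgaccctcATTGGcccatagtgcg
Trib3, chr2:152344028-152344057: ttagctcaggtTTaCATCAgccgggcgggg
Chac1, chr2:119351038-119351067: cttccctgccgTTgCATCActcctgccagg

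The match in Hspa5 begins 65 bases before the start of the transcript, and those in Hsp90b1 begin 212 and 107 bases before it. The match in Canx begins 145 bases and that in Calr 162 bases before the start. In Trib3 the CARE match begins at base 15 of the transcript, and in Chac1 it begins 193 bases before the start. Among 123 genes with a window on the wider lists of ER and stress genes used below, 10 held ERSE and 18 held CARE. A match is a description of the letters and not a measured binding site. A window without a match does not show that a gene lacks the element, since only exact letters near the start were searched.

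**Figure D1:**
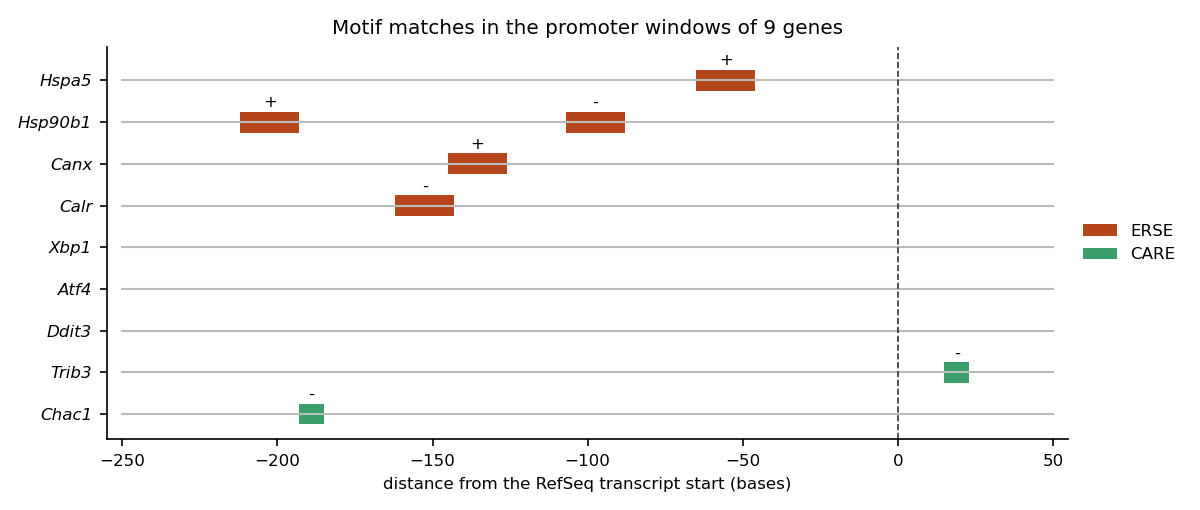
Matches of ERSE and CARE in the RefSeq promoter windows of 9 genes, drawn by distance in bases from the start of the transcript, with the strand of each match (+ is the strand of the gene). The 4 chaperone genes hold ERSE, Trib3 and Chac1 hold CARE, and Xbp1, Atf4 and Ddit3 hold neither within these windows.

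The depth ran from 2140142 to 49072746 counts on genes per library, with a median of 24663235. The C3 library at 9 weeks was the shallowest, and a level resting on 3 counts or fewer was read as not detected. The presence of the transgene followed the labels. Human PMP22 was at 10106 to 13936 CPM (counts scaled to the same total in every library) in C3, 9762 to 13903 in C22 and 7867 to 16217 in C3 c-Jun KO, and at 0.0391 to 6.4 CPM in the controls. Its mean was 12623 CPM in C3 and 11846 in C22, so that it was not higher in the line with more copies. Mouse Pmp22 was lower by a log2 of -1.16 in C3 and -2.42 in C22. Its mean was 23242 CPM in WT-C3, 10425 in C3, 22931 in WT-C22 and 4313 in C22. Whether human and mouse PMP22 RNA together exceeded the controls was not tested. Jun, which encodes c-Jun, was higher by 0.90 in C3 and by 1.41 in C22, and in C3 c-Jun KO it was lower than in C3 by -1.90. The summed level of 8 markers of myelinating Schwann cells ran from 54750 to 97362 CPM in WT-C3, 36107 to 54760 in C3, 44459 to 91159 in WT-C22 and 23313 to 35634 in C22.

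All levels are CPM after TMM scaling over the 25 libraries, and fold changes are log2 values from the quasi-likelihood test of edgeR, with Benjamini-Hochberg adjusted p values over the 13993 genes that passed a filter on low counts. A gene was called at an adjusted p under 0.05. Of the 10 genes, 9 passed the filter, and Chac1, at 3 to 114 counts per library, did not. On the scale of CPM per kilobase of exon, averaged over a group, Calr was the highest of the 10 genes in every group, at 130 to 161, and Chac1 the lowest, at 0.349 to 0.834. Hspa5, Hsp90b1 and Canx lay between 63.8 and 84.5, Atf4 between 35.8 and 50.4, Xbp1 between 17.7 and 36.1, and Atf6 between 5.34 and 6.09. Ddit3 was at 1.56 to 2.96 and Trib3 at 0.767 to 1.36.

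**Figure D2:**
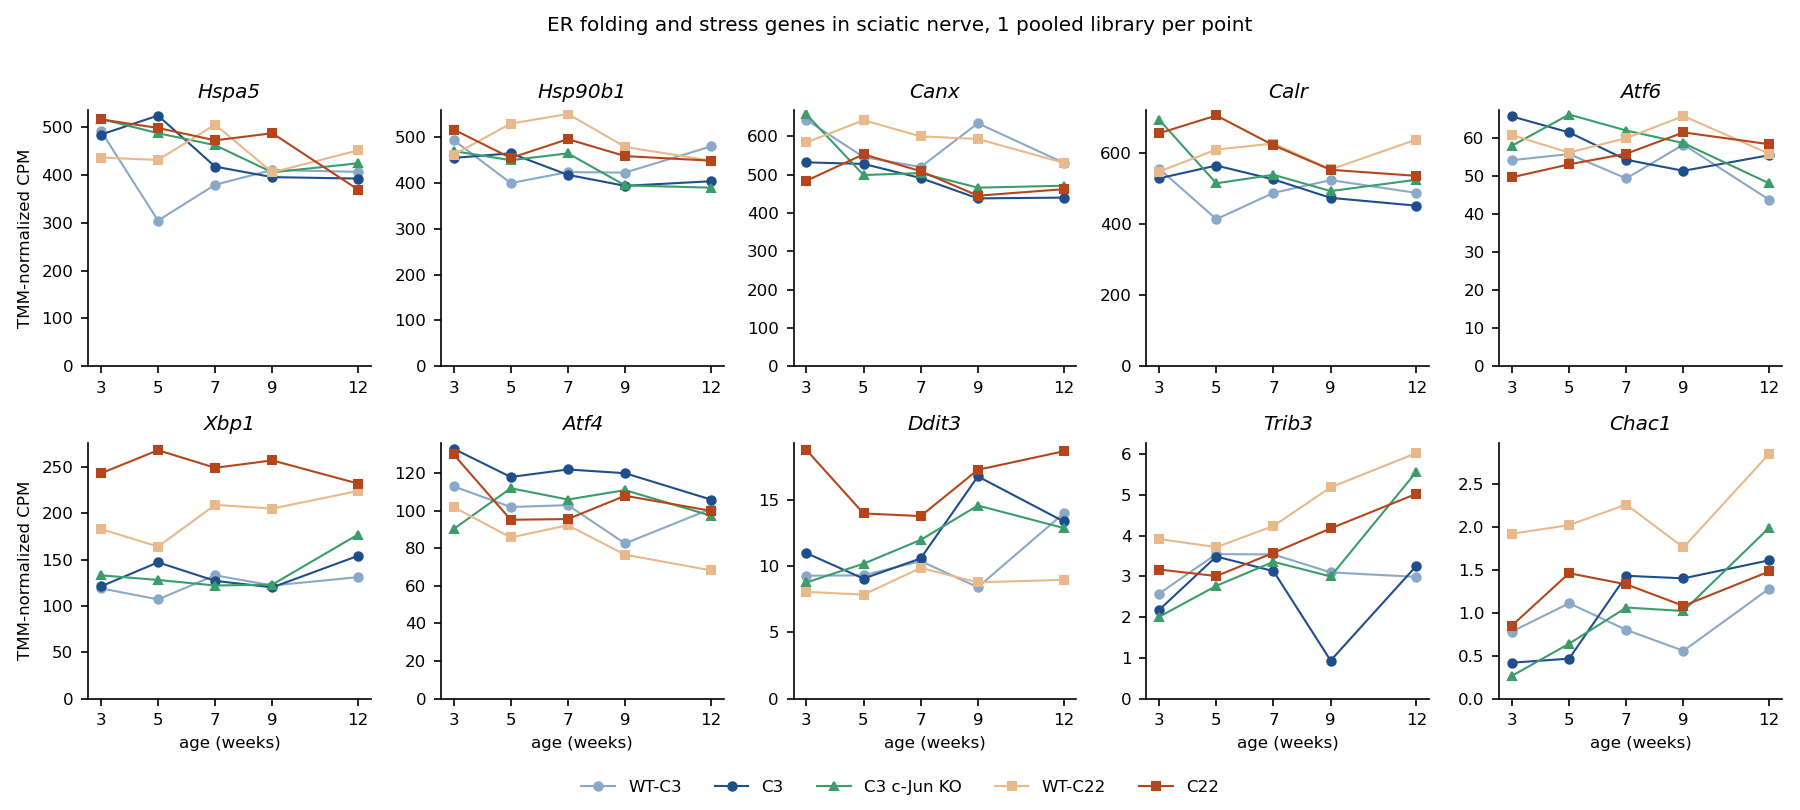
Level of each of the 10 genes as TMM-normalized CPM against age in weeks, with 1 point per pooled library and 1 line per group, and each vertical axis starting at 0. The lines of Ddit3 and Xbp1 in C22 lie above those of WT-C22 at every age, that of Chac1 in C22 lies below, and among the chaperones the lines of C3 and of C22 cross those of their controls, except for Canx.

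In C22 nerve the RNA of Ddit3 and Xbp1 was higher than in WT-C22 and that of Canx was lower, while Hspa5, Hsp90b1 and Calr differed by less than the spread between libraries. Thus 3 of the 9 genes tested were called, 2 higher and 1 lower. Of all genes tested 42.4% were called in this comparison, 21.9% higher and 20.5% lower, so that the share among these genes was not above the background. In C3 nerve 0 of the 9 genes were called against WT-C3, where 23.9% of all genes were, 12.5% higher and 11.4% lower. At an unadjusted p under 0.05 by edgeR the count in C3 was 2 of the 9, Canx and Atf4, where 5197 of all 13993 genes were. Both genes were called by DESeq2, for which the share of all genes called is not given here.

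HSPA5, also called BiP, is the main HSP70 chaperone of the ER lumen and holds the sensors inactive until unfolded protein draws it away. Hspa5 (chr2:34661982-34668880, plus strand, GRCm39, protein coding) was at 437, 432, 506, 406 and 452 CPM in WT-C22, in order of age (weeks 3, 5, 7, 9, 12), as in every such series of values here. In C22 it was at 517, 499, 473, 488 and 370 CPM. C22 was the higher group at 3 of 5 ages and the groups overlapped, and the C22 library at 12 weeks was the lowest of the 10. The log2 difference was 0.07 (SE 0.10, 95% interval -0.15 to 0.28, adjusted p = 0.625).

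In the other model Hspa5 was at 493, 305, 380, 411 and 407 CPM in WT-C3 and at 485, 525, 418, 396 and 393 CPM in C3. The ranges overlapped, and C3 was higher at 5 and 7 weeks alone. The log2 difference of 0.15 (SE 0.13, 95% interval -0.13 to 0.43) had an adjusted p of 0.425. Of the exonic bases of Hspa5, 44.2% overlap exons of Rabepk on the opposite strand, which differed by 0.11 in C22 (adjusted p = 0.376).

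HSP90B1, or GRP94, is the HSP90 of the ER. Hsp90b1 (chr10:86526073-86541446, minus strand) had a mean of 494 ± 44.3 CPM (SD, n = 5) in WT-C22 and 475 ± 29.6 in C22, and of 444 ± 40.7 in WT-C3 and 427 ± 31.2 in C3. Its log2 difference was -0.06 in both models, with 95% intervals of -0.25 to 0.12 in C22 and -0.25 to 0.13 in C3.

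Calreticulin and calnexin hold glycoproteins by their sugar chains until they are folded, calreticulin in the lumen and calnexin, encoded by Canx, in the membrane. Calr (chr8:85567946-85573667, minus strand) had a mean of 595 ± 41.6 CPM in WT-C22 and 615 ± 70.9 in C22, and of 494 ± 52.9 in WT-C3 and 509 ± 45.7 in C3. Its log2 difference was 0.04 in both models, with adjusted p values of 0.759 in C22 and 0.795 in C3.

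Canx (chr11:50183939-50216529, minus strand) was at 584, 642, 600, 593 and 531 CPM in WT-C22 and at 484, 553, 509, 445 and 462 CPM in C22, lower at each of the 5 ages although the ranges overlapped. The log2 difference was -0.27 (SE 0.08, adjusted p = 0.0214). Without the C22 library at 12 weeks the adjusted p was 0.0514, and with scaling by library size only it was 0.274 at a difference of -0.10.

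In C3 Canx was at 532, 528, 491, 438 and 440 CPM against 643, 546, 520, 634 and 531 CPM in WT-C3, again lower at 5 of 5 ages with overlapping ranges. The log2 difference of -0.24 (SE 0.10) did not pass the threshold with edgeR (adjusted p = 0.083). The change in C22 less that in C3 was -0.05 (95% interval -0.30 to 0.21, adjusted p = 0.883).

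**Figure D3:**
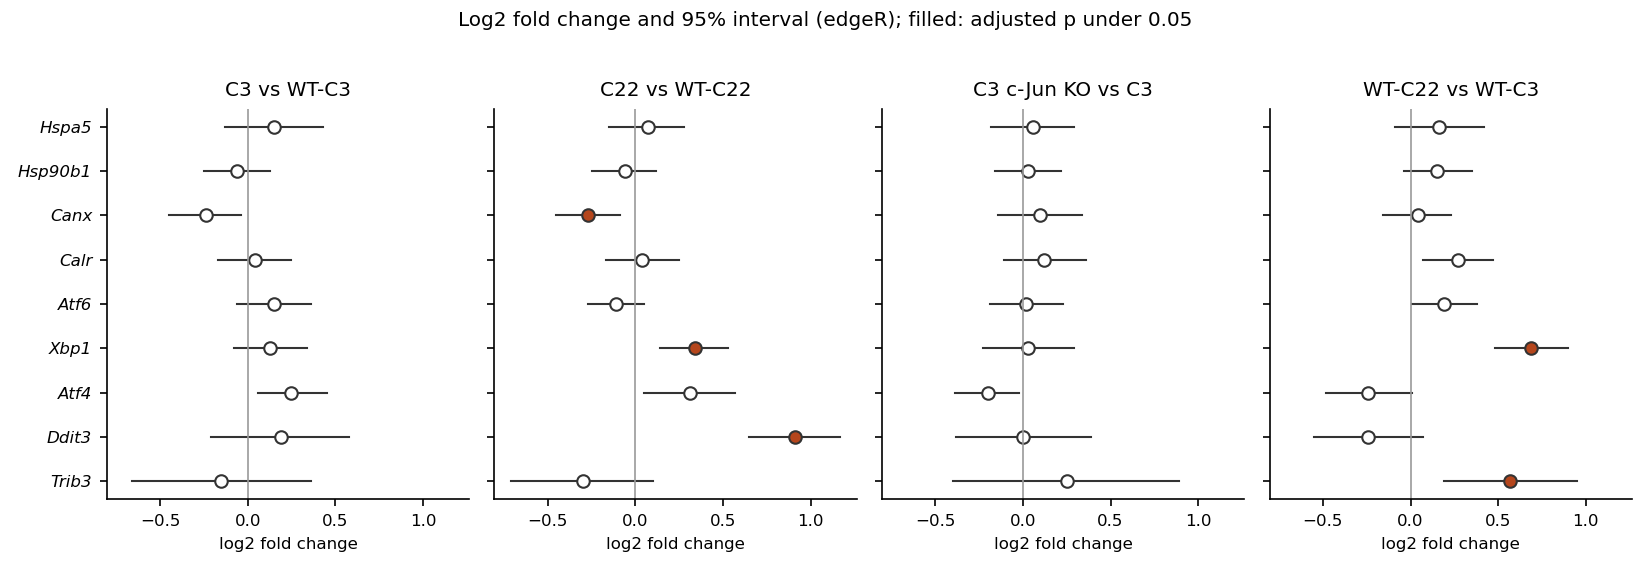
Log2 fold change of the 9 genes that passed the filter in 4 comparisons, with 95% intervals from edgeR as lines and filled points for an adjusted p under 0.05. Ddit3, Xbp1 and Canx are filled in C22 against WT-C22, Xbp1 and Trib3 in WT-C22 against WT-C3, and no point is filled in the other comparisons.

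Of the genes of the sensors, Atf6 (chr1:170532026-170696208, minus strand) was at a mean of 59.7 ± 4.04 CPM in WT-C22 and 55.7 ± 4.58 in C22, a log2 difference of -0.11 (SE 0.07, adjusted p = 0.262). In C3 it was at 57.7 ± 5.82 against 52.3 ± 5.74 CPM in WT-C3, a difference of 0.15 (SE 0.10, adjusted p = 0.286). The change in C22 less that in C3 was -0.27 (SE 0.12), and its adjusted p was 0.179.

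Xbp1 (chr11:5470606-5483027, plus strand) was at 183, 164, 209, 205 and 224 CPM in WT-C22 and at 243, 268, 249, 257 and 232 CPM in C22. Each C22 library lay above each WT-C22 library. The log2 difference was 0.34 (SE 0.09, adjusted p = 0.00926), a rise of 1.26-fold. The C3 libraries, at 121, 147, 127, 120 and 154 CPM, overlapped those of WT-C3, at 119, 107, 133, 122 and 131 CPM. There the difference was 0.13 (SE 0.10, adjusted p = 0.345), and that between the models, 0.19 (95% interval -0.08 to 0.45), had an adjusted p of 0.398.

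The control strains also differed in Xbp1. WT-C22 lay above WT-C3 at every age with no overlap, by a log2 of 0.69 (SE 0.10, adjusted p = 0.000278). XBP1 is also a factor of plasma cells, and the summed level of 7 markers of B cells and plasma cells was 19.7 to 28 CPM in WT-C3, 25.2 to 62.1 in WT-C22, 20.4 to 51.7 in C22 and 15.8 to 29.1 in C3. In WT-C3, 2 of these markers were at or under 3 counts in every library. The markers did not move together between the controls. Cd79a and Cd79b were lower in WT-C22 at 5 of 5 ages, and Mzb1 was higher at 5 of 5. Ighm was higher at 4 ages, and Ms4a1, Jchain and Tnfrsf17 were higher at 3. Of the 7 markers 1 was high enough to be tested, Ighm, and it was called in none of the comparisons. Ighm differed by 0.67 between WT-C22 and WT-C3 (SE 0.23, adjusted p = 0.0535 by edgeR) and by -0.40 between C22 and WT-C22 (SE 0.25, adjusted p = 0.217). The part of these cells in the levels of Xbp1 was not tested. Of the exonic bases of Xbp1, 22.0% overlap Ccdc117 on the opposite strand, which differed by 0.06 in C22 (adjusted p = 0.661).

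ATF4 is the transcription factor of the PERK arm and of the integrated stress response. Atf4 (chr15:80139372-80141745, plus strand) was at 102, 85.8, 92.3, 76.6 and 68.3 CPM in WT-C22 and at 130, 95.2, 95.6, 108 and 100 CPM in C22. It was at 113, 102, 103, 82.6 and 101 CPM in WT-C3 and at 133, 118, 122, 120 and 106 CPM in C3. In both models Atf4 was higher than in the control at 5 of 5 ages, with ranges that overlapped. The log2 differences of 0.31 in C22 (SE 0.12, adjusted p = 0.0521) and 0.25 in C3 (SE 0.09, adjusted p = 0.0584) fell short of a call. The difference between them was 0.04 (95% interval -0.29 to 0.36). Atf4 passed in C3 by DESeq2 (adjusted p = 0.0452), in C22 with all 25 libraries in 1 fit by edgeR (0.0165), and in both models with age as a block or with library size only.

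Ddit3 encodes CHOP, a transcription factor induced late in ER stress and tied to cell death and to demyelination in other myelin disorders. Ddit3 (chr10:127124268-127132163, plus strand) was at 8.07, 7.86, 9.88, 8.79 and 8.98 CPM in WT-C22, from 74 to 359 counts. In C22 it was at 18.8, 14, 13.8, 17.3 and 18.7 CPM, from 289 to 553 counts. All C22 libraries lay above all WT-C22 libraries. The log2 difference was 0.91 (SE 0.12, 95% interval 0.65 to 1.17, adjusted p = 0.000102), a rise of 1.88-fold, and it was the largest among the 9 genes tested.

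In C3 the level of Ddit3 was 11, 9.07, 10.6, 16.8 and 13.4 CPM, against 9.29, 9.32, 10.4, 8.42 and 14 CPM in WT-C3. The C3 libraries at 3, 5, 7 and 12 weeks lay within the control range, and that at 9 weeks, the shallow library, rested on 36 counts. The log2 difference was 0.19 (SE 0.18, 95% interval -0.21 to 0.58, adjusted p = 0.491), and without the shallow library it was 0.10. The change in C22 exceeded that in C3 by 0.71 (SE 0.22, adjusted p = 0.0378). This was the only one of the 9 genes with a called difference between the models, where 12.1% of all genes were called. Without the shallow library the difference was 0.80 (adjusted p = 0.0132), but it lost its call, with adjusted p values up to 0.079, when any 1 of 9 other libraries was left out, while the difference stayed at 0.57 to 0.72. These were C3 at 3, 5 or 7 weeks, WT-C3 at 7 or 12 weeks, C22 at 3 or 12 weeks and WT-C22 at 3 or 9 weeks.

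Exons of genes on the opposite strand cover 82.4% of the exonic bases of Ddit3. Most of these belong to Mars1, the methionyl-tRNA synthetase, and 69 bases to Mbd6. Mars1 was higher in C3 by 0.37 (SE 0.11, adjusted p = 0.0311), and in C22 it differed by 0.16 (SE 0.06, adjusted p = 0.0638). Mbd6 was higher in both models, by 0.70 in C3 (adjusted p = 0.000533) and by 0.79 in C22 (adjusted p = 6.93e-05). The libraries kept the strand of the RNA, but whether counting used it is not given in the sources used here, and the part of these genes in the counts of Ddit3 was not tested.

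TRIB3 is a pseudokinase that ATF4 and CHOP induce and that restrains AKT and ATF4. Trib3 (chr2:152179337-152191958, minus strand) was at 3.92, 3.72, 4.24, 5.19 and 6.03 CPM in WT-C22 and at 3.17, 3.01, 3.58, 4.18 and 5.03 CPM in C22. It was thus lower in C22 at 5 of 5 ages, opposite in sign to Ddit3, but the ranges overlapped and the log2 difference of -0.30 (SE 0.18) had an adjusted p of 0.21. In WT-C3 it was at 2.58, 3.55, 3.54, 3.1 and 2.99 CPM. In C3 it was at 2.18, 3.49, 3.13, 0.934 and 3.26 CPM, of which the value at 9 weeks was 2 counts. The difference was -0.15 (SE 0.23, adjusted p = 0.69) with this library and -0.06 without it.

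CHAC1 degrades glutathione and is among the ATF4 targets that respond most. Chac1 (chr2:119180757-119184866, plus strand) was at 1.92, 2.02, 2.26, 1.76 and 2.85 CPM in WT-C22, from 19 to 114 counts, and at 0.851, 1.46, 1.33, 1.08 and 1.48 CPM in C22, from 25 to 39 counts. Each C22 library lay below each WT-C22 library. Under an exact two-sided permutation test on log2(CPM + 0.1), C22 was lower by -0.76 (exact permutation p = 0.00794, the smallest that 5 against 5 libraries can give, and 0.0159 adjusted over the 4 comparisons made for Chac1). In C3 the level was 0.418, 0.465, 1.43, 1.4 and 1.61 CPM against 0.781, 1.11, 0.8, 0.556 and 1.28 CPM in WT-C3, and the difference of 0.08 had an exact permutation p of 0.881.

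By the ranges of the 5 libraries, 3 of the 10 genes did not overlap between C22 and WT-C22, namely Ddit3 and Xbp1, which were higher, and Chac1, which was lower. Of all genes tested, 30.6% did not overlap there. Between C3 and WT-C3, 0 of the 10 genes were without overlap, where 17.5% of all genes were.

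Between the controls, Xbp1, Trib3 and Chac1 were higher in FVB/NRJ than in C57BL/6J nerve. Against WT-C3, WT-C22 was higher in Xbp1 and in Trib3 (0.57, SE 0.17, adjusted p = 0.0364), 2 of 9 genes, where 21.7% of all genes were called and 9.99% were higher. Chac1 was also higher in WT-C22, by 1.20 on the log2(CPM + 0.1) scale (exact permutation p = 0.00794, 0.0159 adjusted). These 3 genes did not overlap between the strains, against 17.0% of all genes. Atf4 was lower in WT-C22 at 5 of 5 ages by -0.24 (SE 0.11, adjusted p = 0.16, or 0.0465 with age as a block). Calr differed by 0.27 (SE 0.09, adjusted p = 0.0586, or 0.0159 by DESeq2), and Ddit3 differed by -0.24 (SE 0.14, adjusted p = 0.27). The call of Trib3 was lost without WT-C3 at 3, 9 or 12 weeks or WT-C22 at 7, 9 or 12 weeks, with adjusted p values up to 0.0912. The comparison of C22 with WT-C22 rests on the same WT-C22 libraries.

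Markers of other cells moved with these strain differences. All 5 mast cell markers were higher in WT-C22, with a summed level of 66.3 to 262 CPM against 32.5 to 83 CPM in WT-C3, and so were 3 of 6 adipocyte markers, at 1314 to 4499 against 1113 to 2449 CPM. In C22 against WT-C22, 5 of 5 perineurial markers were lower, at 888 to 1132 against 1315 to 2016 CPM, and 5 of 8 endothelial and pericyte markers, at 664 to 900 against 929 to 1186 CPM. In C3 4 of 5 perineurial markers were lower than in WT-C3, at 1207 to 1698 against 1290 to 2021 CPM. Of 8 markers of immature and repair Schwann cells 5 were tested, of which 5 were higher in C3 and 3 in C22, with 1 lower in C22, and their sum was 290 to 389 CPM in C3, 123 to 162 in WT-C3, 173 to 257 in C22 and 139 to 185 in WT-C22. Their part in the levels of the ER genes was not tested.

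Loss of c-Jun in C3 Schwann cells went with no called change in these genes. Of the 9 genes 0 were called against C3, where 0.550% of all genes were, or 1.95% when age was entered as a block. With so few calls over all genes, 0 calls say little about these genes. At an unadjusted p under 0.05 by edgeR the count was 1 of the 9, Atf4, where 1096 of all 13993 genes were. DESeq2 called 0 of the 9. Atf4 was at 90.3, 112, 106, 111 and 97.4 CPM in C3 c-Jun KO, lower than C3 at 5 of 5 ages, but the log2 difference of -0.20 (SE 0.08) had an adjusted p of 0.561. Ddit3, at 8.78, 10.2, 12, 14.6 and 12.9 CPM, differed from C3 by 0.00 (95% interval -0.38 to 0.39). Hspa5 was at 406 to 518 CPM and differed by 0.06 (95% interval -0.18 to 0.29).

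With age, a spline of 3 degrees of freedom called 0 of the 10 genes in each group. In the same fit 0.693% of all genes were called in WT-C3, 2.27% in C3, 3.38% in C3 c-Jun KO, 2.86% in WT-C22 and 0.752% in C22. For the difference in course between model and control, 0 of the 10 genes were called, in a fit with 5 residual degrees of freedom that called 0.0261% of all genes in C3 and 0.0523% in C22. With shares this low, 0 calls by the spline say little about the 10 genes. The unadjusted p was under 0.05 in C3 for 2 of the 10 genes, Hspa5 and Chac1, both at an adjusted p of 0.563 by edgeR, and in C22 for 0. The share of all genes at this unadjusted p is not given here, so that these counts are not a result about the 10 genes.

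A straight line in age called 1 gene in C3 and 2 in C3 c-Jun KO. Chac1 rose in C3 by 0.217 on the log2 scale per week (SE 0.058, adjusted p = 0.0326), where 5.96% of all genes were called. In C3 c-Jun KO, where 5.94% were, Chac1 rose from 0.265 to 1.99 CPM between 3 and 12 weeks, by 0.262 per week (SE 0.058, adjusted p = 0.0108), and Trib3 from 2.01 to 5.57 CPM, by 0.147 per week (SE 0.036, adjusted p = 0.0196). Slopes of Atf4 were -0.030 in C3 and 0.010 in C3 c-Jun KO, without a call. Those of Trib3 were 0.005 in WT-C3, 0.030 in C3, 0.078 in WT-C22 and 0.085 in C22, also without a call. The call of Chac1 in C3 was lost without the library of 3, 5 or 12 weeks, with slopes of 0.170, 0.188 and 0.402 per week. Both calls in C3 c-Jun KO were lost without that of 3 or 12 weeks. A difference in slope was tested for C3 against WT-C3 and C22 against WT-C22, where 0 of the 10 genes were called. Of all genes, 0.0196% were called in C3 and 0.464% in C22, so that 0 calls say little about these genes. A difference in slope was not tested for C3 c-Jun KO.

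To place the 10 genes among the rest of their pathways, 8 lists of 152 genes that include them were followed, of which 144 were tested. In C22, 28 were higher and 30 lower than in WT-C22, 40.3% of those tested, and in C3, 13 were higher and 19 lower than in WT-C3, 22.2%. Both shares are close to the 42.4% and 23.9% of all genes. In C3 the 32 calls fell to 19 without the C3 library at 5 weeks and to 21 without the WT-C3 library at 9 weeks. The calls over all genes under these omissions are not given here, so that the falls cannot be read as particular to the lists. The median log2 change was -0.01 in C3 and 0.00 in C22, beside a median of 0.00 over all genes in each. The split between higher and lower depended on the scaling. With library size only, which moved the median of all genes to 0.17 in C22 and 0.08 in C3, it was 57 higher and 16 lower in C22 and 23 higher and 13 lower in C3.

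**Figure D4:**
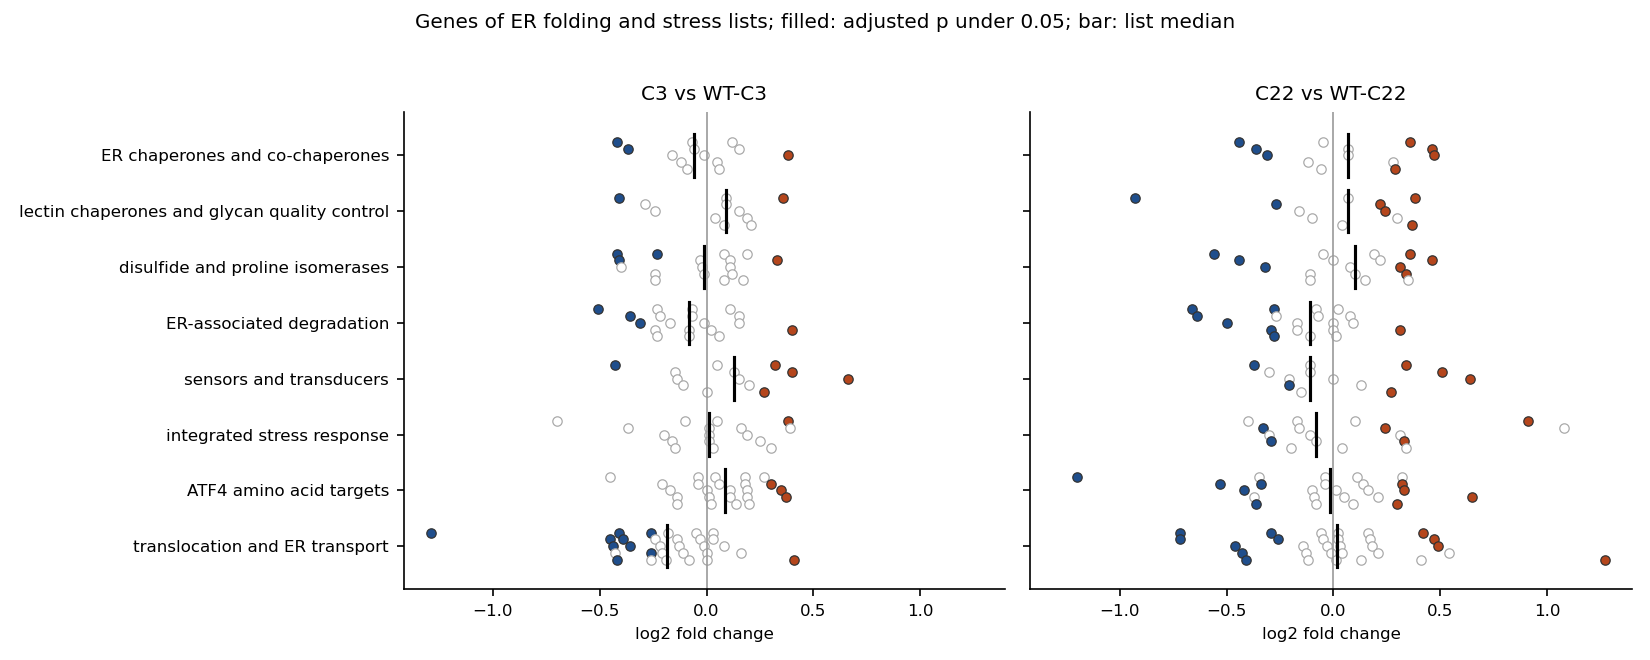
Log2 fold change of each gene tested on 8 lists of ER and stress genes in C3 against WT-C3 and in C22 against WT-C22, with filled points for an adjusted p under 0.05 (red higher, blue lower), the median of a list as a bar, and vertical offsets for legibility only. Higher and lower genes lie side by side on most lists, and the list medians stay between -0.19 and 0.13.

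Among 13 ER chaperones and co-chaperones, 4 were higher and 3 lower in C22. The higher genes were Sdf2l1 (0.47), Creld2 (0.46), Hyou1 (0.36), which exchanges the nucleotide of HSPA5, and Dnajb11 (0.29). The lower ones were Hspa13 (-0.44), Dnajc3 (-0.36) and Dnajb9 (-0.31), of which the latter pair encode J proteins that work with HSPA5. In C3, Hyou1 was higher (0.38), and Dnajb9 (-0.42) and Dnajc3 (-0.37) were lower. Hyou1 was thus higher and Dnajb9 and Dnajc3 lower in both models at 5 of 5 ages.

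Of 11 lectin chaperones and genes of glycan quality control, 4 were higher in C22, the thiol isomerase Pdia3 (0.38), Mogs (0.37), the folding sensor Uggt1 (0.24) and Ganab (0.22). Lower in C22 were Canx and Man1b1, a mannosidase that marks glycoproteins for degradation, at -0.93 (SE 0.10, adjusted p = 2.08e-05). Man1b1 fell from a mean of 237 ± 35.7 CPM in WT-C22 to 125 ± 6.41 in C22, and from 194 ± 22.2 in WT-C3 to 147 ± 11.5 in C3 (-0.41), where Uggt1 was higher (0.36).

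Of 17 disulfide and proline isomerases, Txndc11 (0.46), Ppib (0.36), Fkbp9 (0.34) and Pdia6 (0.31) were higher in C22 and Fkbp14 (-0.56), the oxidase Ero1a (-0.44) and Fkbp7 (-0.32) lower. In C3 Txndc11 was higher (0.33), and Fkbp7 (-0.42), Tmx1 (-0.41) and Ero1a (-0.23) were lower. In ER-associated degradation, which returns misfolded protein to the cytosol, 1 of 19 genes was higher in C22, the ubiquitin ligase Syvn1 (0.31), and 6 were lower, among them Rnf5 (-0.66), Derl1 (-0.50) and Erlec1 (-0.29). In C3 Syvn1 was higher (0.40), and Rnf5 (-0.51), Derl1 (-0.36) and Selenos (-0.31) were lower.

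Of 13 sensors and transducers, Atf6b (0.64), Traf2 (0.51), Xbp1 and Creb3l2 (0.27) were higher in C22. Mbtps2 (-0.37) and Mbtps1 (-0.21), the proteases that cut ATF6, were lower. In C3 Traf2 (0.66), Atf6b (0.40), Creb3l2 (0.32) and Ern1 (0.27), which encodes IRE1, were higher and Mbtps2 (-0.43) lower.

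Beside Ddit3, 16 genes of the integrated stress response were tested. In C22 Ppp1r15b (0.33), a subunit of the phosphatase that ends the response, and the kinase Eif2ak4 (0.24) were higher, and Atf5 (-0.33) and the kinase Eif2ak2 (-0.29) lower. In C3, Ppp1r15a (0.38), the inducible counterpart of Ppp1r15b, was the only one called. Of 24 ATF4 targets in amino acid supply and tRNA charging, 4 were higher in C22, Mthfd2 (0.65), Psph (0.33), Shmt2 (0.32) and Tars1 (0.30), and 5 lower, Slc7a5 (-1.20), Phgdh (-0.53), Slc7a1 (-0.42), Pck2 (-0.36) and Wars1 (-0.34). The fall of Slc7a5, a transporter of large neutral amino acids, from 173 ± 30.9 to 75.8 ± 16.7 CPM was the largest on this list. In C3 Mars1 (0.37), Eprs1 (0.35) and Cars1 (0.30), all tRNA synthetases, were higher and 0 genes lower.

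Of 30 genes of translocation and ER transport, Sec11c (1.27), Spcs1 (0.49), Sec61a1 (0.47) and Dad1 (0.42) were higher in C22 and 7 were lower, led by Sec63 (-0.72), Sec24d (-0.72), Ssr1 (-0.46) and Ssr3 (-0.43). In C3 Sec61a1 (0.41), the channel subunit, was higher and 9 were lower, led by Sec61g (-1.29), Ssr3 (-0.45), Spcs1 (-0.44) and Sec62 (-0.42). In C3 c-Jun KO 0 of the 144 genes were called against C3 by edgeR or DESeq2. Of all genes 0.550% were called there by edgeR, so that 0 calls say little about the lists.

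Some well-known targets of the response, looked up after the calls had been seen and outside the rule for naming genes, were not called in C22. Manf differed by 0.28 (adjusted p = 0.174), Pdia4 by 0.19 (adjusted p = 0.0969), Herpud1 by -0.27 (adjusted p = 0.0517) and Asns, the asparagine synthetase induced by ATF4, by -0.37 (adjusted p = 0.379). Others named above were called, such as Sdf2l1, Creld2, Hyou1 and Dnajb11 as higher and Dnajb9 and Dnajc3 as lower. These picks therefore do not measure the share of targets that changed. Between the controls, 36 of the 144 genes were called, 18 in each direction, or 25.0% against 21.7% of all genes. Without WT-C22 at 7 or 9 weeks 23 were called, and the share of all genes under these omissions is not given here.

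Over the 25 libraries, the genes whose log2 CPM most resembled that of Hspa5 were Pdia4 (Pearson r = 0.816), Stip1 (0.793), Hspa4 (0.790), Calr (0.761) and Hsp90ab1 (0.759), 3 of which encode cytosolic chaperones or their partners. Those most like Ddit3 were Slc8b1 (0.880), Inafm2 (0.876), Gps2 (0.873), Zfp692 (0.864) and Zfp598 (0.860), none of which is on the ER and stress lists. Between Hspa5 and Ddit3 themselves r was -0.03, and between Canx and Ddit3 it was -0.78. These values describe libraries that share groups, ages and scaling. Once group means were removed, r was 0.79 for Hspa5 with Calr, -0.75 for Canx with Ddit3 and -0.39 for Hspa5 with Ddit3.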

How the data were processed

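RNA of pooled sciatic nerves was measured in 25 libraries (poly(A), directional kit, submitters' label batch1 for all). Per the paper and the processing notes, the authors trimmed reads with cutadapt 2.10, aligned them with STAR 2.7.5a to GRCm39 with the human PMP22 locus added, removed duplicates with UMI-tools 1.1.1, counted fragments on Ensembl 110 genes with HTSeq 0.12.4 and deposited raw counts. Whether HTSeq used the strand is not given in the sources used here. Rows that name no gene, 13.51% to 17.42% of a library's total, stayed out of library sizes.

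The filter kept genes whose log2 CPM exceeded 1 in 7 or more libraries. The edgeR 4.0.16 quasi-likelihood test (R 4.3.3) used TMM factors among the libraries compared and group as the only term, with the adjusted p values over all genes kept. Age was fitted in 1 model of all libraries over 15298 genes, as a spline with 5 and a slope with 15 residual degrees of freedom. Chac1 was compared by exact permutation with a pseudocount of 0.1. P values measure the spread between pools of different age. Alternatives were median-ratio factors, library size only, DESeq2 1.42.0, other filters, 1 fit of all libraries, a block for age, and leaving out each library in turn. Same-aged C3 c-Jun KO and C3 libraries deviated together at every age (r of 0.103 to 0.630 across genes), so that age pairs them. The main test left this pairing out, and the block for age used it. In the other comparisons at least 1 age had r under 0.1. For WT-C22 against WT-C3 this was 12 weeks alone (0.041), and r was 0.126 to 0.648 at the other ages. The fits were also run on simulated counts, in which the group comparisons held no effect of age. That run does not test the use of ages as replicates. The 10 genes, the lists and the motifs were chosen with earlier results of these data known. The rule named all 10 genes, and per list and comparison the 4 largest called changes, or all genes of a count of 5 or fewer. The lists hold 153 symbols from general knowledge, of which 152 matched and Nars did not. The values of 1 list gene are not reported here. Gene positions are from GENCODE on GRCm39 and promoters from RefSeq on GRCm38.p6.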

Additional observations from a re-analysis of the deposited data

Results flagged for a closer look

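Among 50 pairs of a gene and a group, 4 held a library far from the other 4 by Dixon's test. It flags about 1 in 20 groups by chance where the values of a group are replicates. Here they are different ages, so that change with age also enters, and each flagged value was at 3 or 12 weeks. Hspa5 in C22 at 12 weeks, at 370 CPM, lay below the others at 473 to 517 CPM. Canx and Calr in C3 c-Jun KO at 3 weeks, at 657 and 694 CPM, lay above the others at 466 to 504 and 493 to 539 CPM. Xbp1 in C3 c-Jun KO at 12 weeks, at 177 CPM, lay above the others at 122 to 133 CPM.

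The change in C22 differed from that in C3 for 14 of the 144 genes on the ER and stress lists, 9.72% of them against 12.1% of all genes, of which 13 are named here. It was higher in C22 for Sec61g by 1.81, Sec11c by 1.39, Spcs1 by 0.91, Sec61b by 0.82, Dad1 by 0.76, Ddit3 by 0.71 and Tmx1 by 0.54. Of these, Spcs1 and Dad1 were called in both models with opposite signs, at -0.44 and -0.36 in C3 and at 0.49 and 0.42 in C22. The change was lower in C22 for Man1b1 by -0.54, Sec24d by -0.53, Phgdh by -0.51, Eprs1 by -0.41, Pck2 by -0.39 and Mbtps1 by -0.28. The calls of Sec11c, Spcs1, Sec61g, Dad1, Tmx1 and Man1b1 were kept under all 27 alternative settings, and that of Ddit3 under 18 of them. Sec61g was at 16.4 ± 3.26 CPM (SD, n = 5) in WT-C3 and at 5.5 ± 1.33 in WT-C22, against 6.77 ± 1.62 in C3 and 7.93 ± 4.13 in C22.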

How the results depend on the processing

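Of 315 log2 fold changes of the 9 genes tested under other settings, 290 kept their sign and side of the threshold, 9 newly passed it, 3 no longer did and 13 changed sign. With 1 library left out, 483 of 540 kept both, and 37 changed sign. Of these edgeR values, none that changed sign was called, and each lay within 0.11 of 0. In C3 the count of called genes went from 0 to 1 with library size only (Atf4) and with age as a replicate block (Atf4, paired by age), and to 2 with DESeq2 (Canx and Atf4). Between the controls it went from 2 to 1 with library size only and with all 25 libraries in 1 fit, where Trib3 was lost, and to 3 with DESeq2, where Calr was added, and with the replicate block, where Atf4 was added as lower. The difference between the models covered 14 genes of the lists, and 8 with no filter. The shares of all genes called under these settings in these comparisons are not given here. For age, the spline called 0 genes, a linear slope 1 in C3 and 2 in C3 c-Jun KO, and in the latter a spline with 2 degrees of freedom and median-ratio factors each called 1. Over all genes, C3 c-Jun KO against C3 gave 77 calls, 273 with the replicate block, 250 with DESeq2, 139 with all 25 libraries in 1 fit and 134 with no filter. With the block, 0 of the 10 genes were called there, and Ddit3 was at -0.03.

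With library size only, Hsp90b1 was at 0.02 in C3 and 0.11 in C22, Atf6 at 0.06 in C22, and the differences between the models at 0.01 for Hspa5, 0.09 for Hsp90b1, 0.06 for Canx and 0.09 for Calr. The calls of list genes in the difference then split into 13 higher and 3 lower, against 7 and 7. With no filter and with filterByExpr, the differences of Hsp90b1 and Calr were 0.01, and with all 25 libraries in 1 fit that of Calr was 0.00. The calls over all genes with a library left out are not given here, so that the counts below describe the listed genes alone. Leaving out 1 library gave the following lowest and highest values. In C3, 0 to 1 of the 10 genes and 19 to 36 genes of the lists were called, with 19 without C3 at 5 weeks and 21 without WT-C3 at 9 weeks, and Calr was at -0.02 to 0.09. In C22, Calr was at -0.01 to 0.08. For the difference between the models, 0 to 1 genes were called, and values ran from -0.17 to 0.00 for Hspa5, -0.06 to 0.04 for Hsp90b1, -0.09 to 0.02 for Canx, -0.06 to 0.06 for Calr and -0.04 to 0.13 for Atf4. In C3 c-Jun KO against C3, values ran from 0.00 to 0.06 for Hsp90b1, -0.09 to 0.10 for Ddit3, -0.09 to 0.09 for Xbp1, -0.03 to 0.08 for Atf6 and -0.02 to 0.38 for Trib3. Between the controls, 1 to 2 of the 10 genes and 23 to 35 genes of the lists were called, with 23 without WT-C22 at 7 or 9 weeks. Chac1 was at -0.10 to 0.33 in C3 and -0.42 to 0.21 in C3 c-Jun KO against C3. The linear slope called 0 to 1 genes in C3 and 0 to 2 in C3 c-Jun KO. The cause of these changes was not tested. Trib3 and Chac1, at 2 and 3 counts in the shallow C3 library, are limited by depth.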
